A study of Mus musculus with 43 samples.

Results

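Cytosolic ribosomal protein genes were followed across acutely isolated glia of the mouse cerebral cortex. They were taken by name: every protein-coding gene called Rpl or Rps with a number, Rplp0 to Rplp2 and Rpsa, leaving aside the Rps6k kinases. The rule uses no measured value and found 81 genes among the 55416 gene identifiers counted. All 81 enter the sums and counts below, and 79 passed the filter on low counts that preceded the comparison of cell types. Some proteins of the ribosome carry other names (Fau, Rps3a1 and Rack1 among them) and were kept as a separate list.

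Rag2 encodes a recombinase subunit without which T and B lymphocytes do not mature. Mice lacking it (Rag2-/-, descended from the B6.Cg-Rag2tm1.1Cgn/J strain and crossed to C57BL/6J) were compared with immunocompetent littermates at 3 months of age. The 12 mice formed 6 pairs. The littermate was Rag2+/- in pairs 1, 2, 3 and 5 and Rag2+/+ in pairs 4 and 6, and both kinds are called controls here. The control of pair 6 was male and its Rag2-/- partner female. Cells were immunopanned with CD45 antibody for microglia, PDGFRα antibody for oligodendrocyte precursor cells (OPCs), GalC antibody for oligodendrocytes and HepaCAM antibody for astrocytes, in that order, and CD45 also binds peripheral macrophages. This gave 43 libraries: 4 control and 4 Rag2-/- from oligodendrocytes, 6 and 5 from OPCs, 6 and 6 from astrocytes, and 6 and 6 from microglia. Each library of a group came from its own mouse. A lane carried libraries of 1 cell type only, so lane effects and cell type effects cannot be told apart.

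The cytosolic ribosome is built from a small subunit, which reads the mRNA, and a large subunit, which joins amino acids. Its proteins are needed in roughly equal numbers, and their mRNAs are abundant in nearly every cell. Many of these mRNAs begin with an unbroken run of pyrimidines, the 5′ terminal oligopyrimidine (TOP) motif, through which mTOR signalling adjusts their translation. Because the mRNAs are short and plentiful, retrotransposition has left the genome with many intronless copies of them, the processed pseudogenes. A read pair that lies wholly in a shared stretch cannot be placed on 1 locus, which bears on every count below.

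Start sites of 60 of the 81 genes were found in RefSeq (GRCm38.p6). A run of at least 6 C or T that opens with C within 5 bases of the annotated start was present in 25 of the 60 (41.7%), against 11.9% of the 27025 symbols with an entry. The letters CCGGAAG, searched on both strands in the 250 bases before the start, were present in 18 members (30%) and in 7.83% of all symbols. TATAAA on the gene's strand between 40 and 21 bases before the start was found in 0 members and in 2.25% of all symbols. These are letter matches in a fixed window. The 15 bases before and the 15 bases from the annotated start are printed for 4 members, with the run in capitals: Rps6, whose protein is the small subunit's phosphorylated component (chr4:86857353-86857382, minus strand); the stalk protein gene Rplp2 (chr7:141447636-141447665, plus strand); Rps9, a small subunit gene that was among the most different between cell types (chr7:3704026-3704055, plus strand); and Rpl15, a large subunit gene with an unusual order of cell types (chr14:18270972-18271001, minus strand).
Rps6: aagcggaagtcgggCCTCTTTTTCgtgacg
Rplp2: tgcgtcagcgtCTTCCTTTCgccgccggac
Rps9: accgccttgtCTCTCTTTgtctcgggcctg
Rpl15: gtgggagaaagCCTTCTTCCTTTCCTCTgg

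The 10 copies with the most reads matched their members at 97.3% to 100% of aligned positions. To show how few bases part a member from a highly counted copy, 3 pairs of stretches of 30 coding bases (GRCm39) are printed, with differing bases in capitals and positions counted from 1 at the 5′ end of each stretch. Rpl3 (chr15:79966718-79966747, minus strand) and Rpl3-ps1 (chrX:13068850-13068879, plus strand) differ by C18A here. Over their whole alignment they share 1208 of 1210 positions. Rpl14 (chr9:120403209-120403238, plus strand) and Rpl14-ps1 (chr7:44974791-44974820, plus strand) differ by C18T and A21G. Rpl37 (chr15:5148056-5148085, plus strand) and Rpl37rt (chr5:115241320-115241349, minus strand), a retrotransposed copy annotated as transcribed, differ by G18A.
Rpl3: ttgggcttcctgcctcgCaagcgcagcagc
Rpl3-ps1: ttgggcttcctgcctcgAaagcgcagcagc
Rpl14: atcctgaaagcttctccCaaAaaagcagct
Rpl14-ps1: atcctgaaagcttctccTaaGaaagcagct
Rpl37: ttccgtgagggaacaacGccgaaacccaag
Rpl37rt: ttccgtgagggaacaacAccgaaacccaag

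Library depth ranged from 6499417 to 23118497 reads counted in genes (median 10447042). Mitochondrially encoded genes took 6.75% to 60.1% of them, with control means of 52.7% in oligodendrocytes, 32.4% in astrocytes, 26.7% in OPCs and 9.22% in microglia. Rag2 itself had 6 counts over the 22 control libraries and 0 over the 21 Rag2-/- libraries, which is too few to check the genotype of a single library. Each cell type had the highest summed level of its own marker list. Markers of other cells were present as well. In control oligodendrocytes the 5 neuronal markers summed to 1495 ± 1021 CPM (counts scaled to a library total of 1e6 by TMM; SD, n = 4), against 59.8 in microglia, 152 in astrocytes and 356 in OPCs, and the 6 oligodendrocyte markers summed to 4117 in astrocytes. The 7 astrocyte markers summed to 2647 ± 346 in control OPCs (n = 6) and 3859 ± 1254 in Rag2-/- OPCs (n = 5), where the 5 OPC markers had 3220 and 2928; in OPC Rag2-/- replicate 1 they had 5760 against 2302. The part of such cells in the results below was not tested, and in bulk samples fewer cells of a type and less RNA per cell cannot be told apart.

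Counts assigned to annotated copies nearly matched those on the genes themselves. The 1921 annotated copies, 1560 of which had a count in at least 1 library, held 1222941 reads over the series, and the 81 members held 1337350. Copies lying within the span of a protein-coding gene held 29.6% of the reads on copies. The 10 highest copies held 33.4%, among them Rpl3-ps1 (49936), Rpl14-ps1 (45513) and Rpl37rt (40382). Reads came in pairs of 50 bases, so each member's coding sequence was cut into 50-base windows, and windows found exactly elsewhere in the genome were counted. A mate outside the copied stretch can still place a pair, which these windows do not take into account. The median member had 77.95% of its coding windows copied. Every coding window was copied in 14 members and none in 3. Among the most copied members by whole transcript were Rps6, Rpl3, Rpl23a and Rpl7a, at 92.6%, 91.6%, 86.5% and 86.0% of windows.

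Members with more copied sequence had lower counts. The 19 members with under 50% of coding windows copied had a median level of 36.7 normalized CPM over the control groups, the 43 with 50% to under 90% had 15.01, and the 19 at or above 90% had 13.6. Across the 81 members Spearman's rho between copied share and level was -0.31, which describes genes of the same libraries and is not a test. The share of a family's reads that fell on copies differed widely between members and came to between 93.0% and 97.03% for Rpl24. Reads that could not be placed on 1 locus are in none of these values. Exons of 24 members also shared bases with another annotated gene, and for 15 the shared part exceeded 25% of the transcript, among them Rpl24 (81.5%) and Rps25 (66.4%). Whether counting used strand is not given in the sources used here, so reads of such genes and of overlapping genes on the other strand may not be separated. For Rpl24, 484 of the 552 shared bases lie in exons of a gene on the same strand, as do all 619 of Rpl13a. Strand could not separate these.

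Microglia held the most ribosomal protein mRNA by every scale used. The 81 members took 0.580% ± 0.04997 of all gene counts in control microglia (SD, n = 6), 0.216% ± 0.0174 in OPCs (n = 6), 0.202% ± 0.0392 in oligodendrocytes (n = 4) and 0.159% ± 0.0152 in astrocytes (n = 6). With mitochondrially encoded genes left out of the total, the shares were 0.640%, 0.294%, 0.424% and 0.235% in the same order. On the normalized scale used for all levels below (CPM after TMM scaling over the 43 libraries), the members summed to 4988 ± 701 in control microglia, 3232 ± 427 in oligodendrocytes, 1664 ± 174 in OPCs and 1597 ± 168 in astrocytes. The lowest microglial library (4368) lay above the highest oligodendrocyte library (3762), and every oligodendrocyte library (from 2844) lay above every OPC and astrocyte library (up to 1965). Oligodendrocytes and OPCs thus changed places between the share of all gene counts and the normalized sum. The reads on copies followed the members: per 100 reads on members there were 102 on copies in oligodendrocytes, 91.0 in microglia, 90.8 in astrocytes and 84.5 in OPCs.

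**Figure D1:**
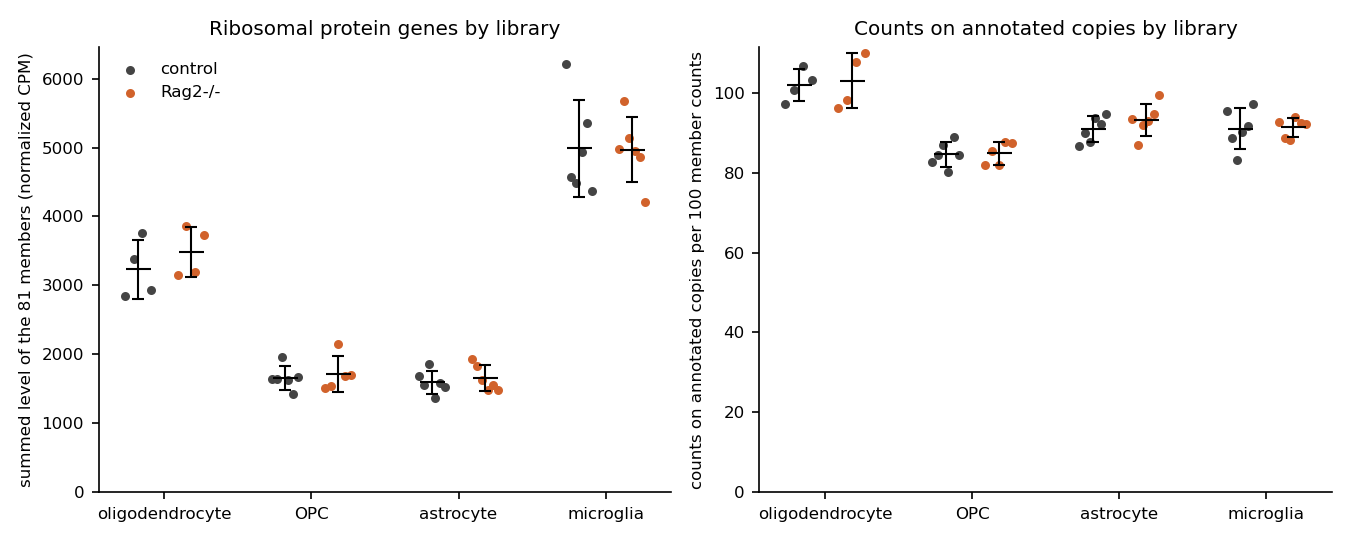
Left, summed level of the 81 ribosomal protein genes (normalized CPM) and, right, reads on annotated copies per 100 reads on members, for each of the 43 libraries by cell type and genotype; points are libraries, dashes group means and bars 1 SD. Control microglia (mean 4988) lie above control oligodendrocytes (3232), OPCs (1664) and astrocytes (1597), while as a share of total gene counts oligodendrocytes (0.202%) and OPCs (0.216%) are close.

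The order of the genes by level was nearly the same in each cell type, with Spearman's rho between 0.94 and 0.98 over the 81 members for the pairs of control groups. These levels share the genes' lengths and copied stretches. Per kilobase of transcript, among members with under 10% of windows copied, Rps3 and Rpl8 were among the 3 highest in each of the 4 cell types. Rps3, a small subunit protein at the mRNA entry, had 453 CPM per kilobase in control microglia, 290 in oligodendrocytes, 126 in astrocytes and 94.0 in OPCs. Rpl8, a large subunit protein close to the catalytic centre, had 220, 147, 79.9 and 89.1 CPM per kilobase in the same order. The comparison of these genes depends on the length used. The Rps3 values rest on a transcript of 946 bases, and its canonical transcript of 1908 bases would give lower ones. For Rpl8 both lengths are 1051. Per kilobase of coding sequence, Rps3 had 569, 364, 158 and 118 CPM and Rpl8 300, 200, 109 and 121. The spread between control libraries of a group was moderate: the median member's coefficient of variation was 19.4% in microglia, 22.3% in astrocytes, 25.1% in OPCs and 28.2% in oligodendrocytes.

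The first comparison asked how far the cell types differ in these genes in control mice. Microglia had the highest mean of the 4 cell types for 72 of the 79 members tested, oligodendrocytes for 5 (Rpl15, Rpl23a, Rpl41, Rps15 and Rps21), OPCs for Rpl24 and astrocytes for Rpl3l. The lowest mean was in astrocytes for 39 members, in OPCs for 24, in oligodendrocytes for 15 and in microglia for Rpl15 alone. The commonest order, microglia above oligodendrocytes, OPCs and astrocytes in turn, held for 31 members, and the same order with the last pair exchanged held for 18. The 6 comparisons between cell types share their control libraries and are given side by side, each from edgeR's quasi-likelihood test in 1 fit of all 43 libraries with a sex term, adjusted by the Benjamini-Hochberg method over the 21368 genes tested. A member is called where the adjusted p is under 0.05.

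Against astrocytes, 73 of 79 members were called higher in microglia and 0 lower, with a median log2 difference of 1.47. Over all genes tested, 58.7% were called, 28% higher and 30.7% lower, and the median difference was -0.08. Against OPCs, 71 members were called higher and 0 lower, with a median of 1.45, where 58.2% of all genes were called (25.8% higher, 32.4% lower) and their median was -0.16. Against oligodendrocytes, 51 were called higher and 2 lower, with a median of 0.85, where 56.4% of all genes were called (27.1% higher, 29.3% lower) and their median was 0.04. All microglial control libraries lay above all libraries of the other type for 64 members against astrocytes, 58 against OPCs and 42 against oligodendrocytes. The same count was not made over all genes. Scaling by total gene counts left the direction of these medians as it was, at 1.69, 1.30 and 1.77, while the median of all genes moved to 0.15, -0.31 and 0.93.

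**Figure D2:**
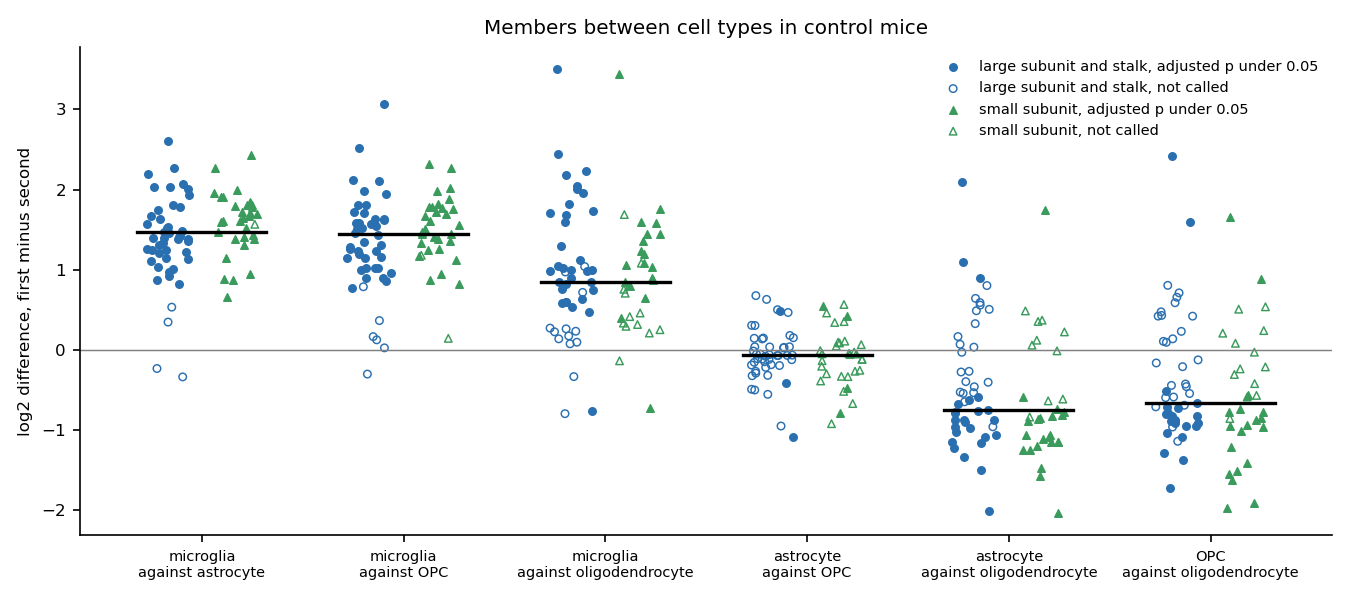
Log2 difference (vertical) of each tested member except Rpl3l in the 6 comparisons between control groups, circles for large subunit and stalk genes and triangles for small subunit genes, filled where the adjusted p is under 0.05; black lines are medians of the 79 members. The medians are 1.47, 1.45 and 0.85 where microglia come first, and -0.75 and -0.67 for astrocytes and OPCs against oligodendrocytes; with total gene counts as the scale these last 2 are -0.08 and 0.38.

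Members of both subunits and the stalk took part. Against astrocytes, 39 of 44 large subunit genes, 31 of 32 small subunit genes and all 3 stalk genes were called higher in microglia, with medians of 1.37, 1.63 and 2.19. Against oligodendrocytes the counts were 30 of 44, 19 of 32 and 2 of 3, and 1 gene of each subunit was called lower.

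The stalk proteins P0, P1 and P2 recruit the elongation factors to the large subunit. Rplp0 had 42.4, 46.3, 47.0 and 79.1 normalized CPM in the 4 oligodendrocyte controls. It ranged from 23.2 to 39.99 (median 28.9) in OPCs, from 22.7 to 36.5 (median 27.8) in astrocytes and from 107 to 148 (median 137) in microglia. The microglial libraries therefore stood apart from all others, and the oligodendrocyte libraries lay above all OPC and astrocyte libraries. The log2 difference of Rplp0 was 2.19 ± 0.18 (SE) against astrocytes, with an adjusted p of 3.6e-14, 2.12 ± 0.18 against OPCs and 1.29 ± 0.20 against oligodendrocytes. Rplp1 followed another order. Its 4 oligodendrocyte controls had 152, 214, 304 and 169 CPM and its microglial controls 184 to 332 (median 255.7), which overlap. OPCs ranged from 42.8 to 92.5 and astrocytes from 42.8 to 64.6, both wholly below. The difference between microglia and oligodendrocytes was 0.26 ± 0.21 with an adjusted p of 0.29, and became 0.57 with an adjusted p of 0.022 without oligodendrocyte control replicate 5 and 1.17 with an adjusted p of 1.3e-05 with total gene counts. Rplp2 had means of 63.8 CPM in microglia, 32.2 in oligodendrocytes, 18.3 in OPCs and 15.2 in astrocytes.

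Rps9, a small subunit protein needed for accurate decoding, led the differences of microglia from astrocytes and stood among the 5 smallest p-values in all 3 comparisons of microglia. Its oligodendrocyte controls had 144, 189, 166 and 93.6 CPM. OPCs ranged from 61.6 to 103 (median 79.3), astrocytes from 62.8 to 110 (median 81.3) and microglia from 368 to 453 (median 399). No library of another type came near the microglial range. The log2 difference was 2.27 ± 0.15 against astrocytes, 2.32 ± 0.15 against OPCs and 1.44 ± 0.17 against oligodendrocytes, and the largest of the 3 adjusted p was 2.1e-09. Rps25, Rps3 and Rplp0 were also among the first 5 against astrocytes (1.958, 1.85 and 2.19), and Rps3, Rpl3, Rps4x and Rplp0 those against OPCs (2.27, 2.52, 2.02 and 2.12).

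Rpl3, a large subunit protein beside the peptidyl transferase centre, had 26.2, 24.5, 21.6 and 17.2 CPM in oligodendrocyte controls, 12.7 to 18.1 (median 15.8) in OPCs, 16.7 to 26.2 (median 21.5) in astrocytes and 75.6 to 111 (median 88.1) in microglia. The microglial libraries were the only ones above 75 CPM, and those of the other types lay close together. It led the comparison of microglia with oligodendrocytes by p, with a log2 difference of 2.01 ± 0.21 and an adjusted p of 7.1e-11. Rpl10, a large subunit protein that joins late in assembly and is X-linked, gave a wide gap. Oligodendrocyte controls had 6.85, 18.6, 7.58 and 3.37 CPM. OPCs ranged from 8.54 to 20.97 (median 9.42), astrocytes from 11.7 to 24.7 (median 13.6) and microglia from 74.3 to 159 (median 89.7). Microglia stood wholly apart. The log2 difference from oligodendrocytes was 3.50 ± 0.39 (adjusted p 4.0e-10), and 2.54 when the counts of the annotated copies were added to those of the gene. Over all libraries of a cell type, 65.0% of the reads of the Rpl10 family fell on copies in oligodendrocytes, against 25.4% in microglia, 33.7% in astrocytes and 47.7% in OPCs.

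**Figure D3:**
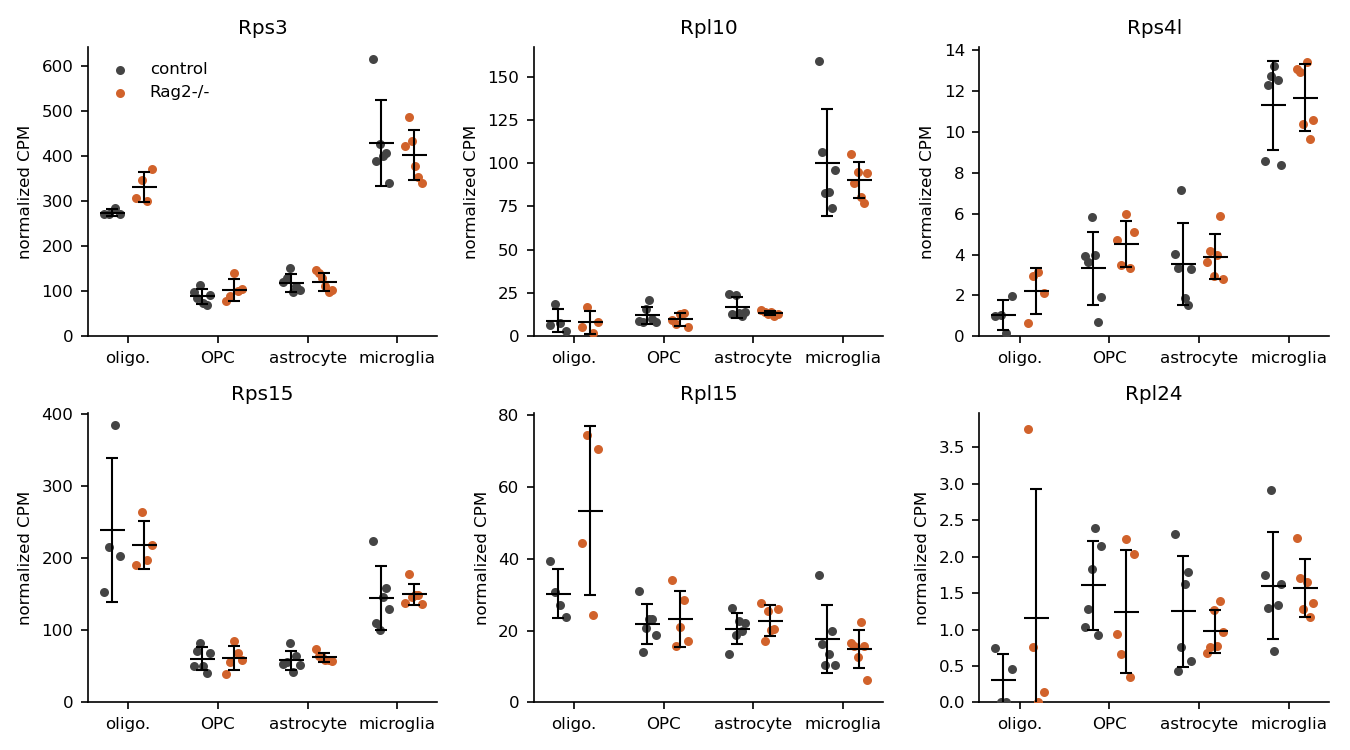
Normalized CPM of Rps3, Rpl10, Rps4l, Rps15, Rpl15 and Rpl24 in each library by cell type and genotype, on linear axes from 0; points are libraries, dashes group means and bars 1 SD. Control microglia lie highest for Rps3, Rpl10 and Rps4l and control oligodendrocytes on average for Rps15 and Rpl15. With total gene counts as the scale, log2 differences of microglia from oligodendrocytes are 0.18 for Rps15 and 0.10 for Rpl15, neither called. Rpl24 stays below 3 CPM in control libraries.

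Rps15 and Rpl15 were the 2 members called lower in microglia than in oligodendrocytes. Rps15 lies near the decoding centre. It had 154, 216, 384 and 203 CPM in oligodendrocyte controls and 100.1 to 224 (median 138) in microglia, so the groups overlapped, and OPCs (40.3 to 82.4) and astrocytes (42.7 to 82.1) lay wholly below oligodendrocytes. The log2 difference of microglia from oligodendrocytes was -0.72 ± 0.22 with an adjusted p of 0.0047. It shrank to -0.34 (adjusted p 0.18) without oligodendrocyte control replicate 5, the library at 384, and was 0.18 with total gene counts as the scale. Rpl15 had 39.5, 30.7, 27.1 and 23.7 CPM in oligodendrocyte controls, 14.02 to 30.9 in OPCs, 13.5 to 26.4 in astrocytes and 10.3 to 35.5 (median 14.9) in microglia. These 4 ranges overlapped. Its difference was -0.76 ± 0.30 (adjusted p 0.031). It was -0.37 and no longer called with copies added, 0.10 with total gene counts, and not called either without 1 of 5 single libraries (oligodendrocyte control replicates 1 and 5, microglia control replicates 3, 4 and 6; -0.60 to -0.72). All of Rpl15's coding windows are copied elsewhere, and 44.7% of its family's reads were on copies in microglia against 19.7% in oligodendrocytes.

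Oligodendrocytes carried more of most members than astrocytes and OPCs on the normalized scale. Astrocytes had 43 members called lower and 4 higher than oligodendrocytes, with a median log2 difference of -0.75, where 36.2% of all genes were called (16.2% higher, 20% lower) and their median was -0.03. OPCs had 37 called lower and 4 higher, with a median of -0.67, where 26.5% of all genes were called (14.3% higher, 12.2% lower) and their median was 0.17. All astrocyte libraries lay below all oligodendrocyte libraries for 34 members, and all OPC libraries for 29, with no such count made over all genes. These directions rested on the scaling. With total gene counts, astrocytes had 14 members called higher and 13 lower (median -0.08) and OPCs 23 higher and 6 lower (median 0.38), while the median of all genes moved to 0.62 and 1.21. Relative to the median of all genes, the members stayed lower on both scales. The share of all genes called with total gene counts is not given here. DESeq2 size factors, and scaling without mitochondrially encoded genes, kept the negative medians.

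Among the genes with the smallest p against oligodendrocytes were Rplp1, Rps15, Rps20 and Rps26 for astrocytes, at log2 differences of -2.01, -2.03, -1.48 and -1.25, and Rps3, Rps15, Rps21, Rps20 and Rplp1 for OPCs, at -1.62, -1.97, -1.91, -1.54 and -1.72. Rps3 had 272, 270, 285 and 270 CPM in the oligodendrocyte controls, the tightest of all members in that group, and 69.7 to 113 (median 88.9) in OPCs. It ranged from 97.4 to 152 (median 116) in astrocytes and from 341 to 614 (median 402) in microglia. Microglial, oligodendrocyte and the other libraries thus fell into separate ranges for Rps3.

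How much of a member is copied went with the size of these differences. Split at the median share of copied coding windows (78.21% among members tested), the 39 less copied members had 31 called lower in OPCs than in oligodendrocytes and a median of -0.87, while the 40 more copied had 6 called lower and a median of -0.22. For astrocytes the counts were 31 and 12, with medians of -0.89 and -0.43. The medians of microglia against oligodendrocytes were 0.64 and 1.07, against OPCs 1.52 and 1.26, and against astrocytes 1.47 and 1.40. Over the 79 members Spearman's rho between copied share and log2 difference was 0.49 for OPCs against oligodendrocytes, 0.41 for astrocytes against oligodendrocytes and 0.34 for microglia against oligodendrocytes. For the comparisons without oligodendrocytes it was -0.26 (microglia and OPCs), -0.13 (astrocytes and OPCs) and -0.08 (microglia and astrocytes). These rho values describe genes that share libraries and carry no test. Adding the counts of the annotated copies to each member raised the number called lower than in oligodendrocytes to 66 in astrocytes (1 higher, median -0.97) and 60 in OPCs (2 higher, median -0.93), and left 51 called higher and 3 lower in microglia (median 0.63). The shares of all genes called in that fit are not given here.

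**Figure D4:**
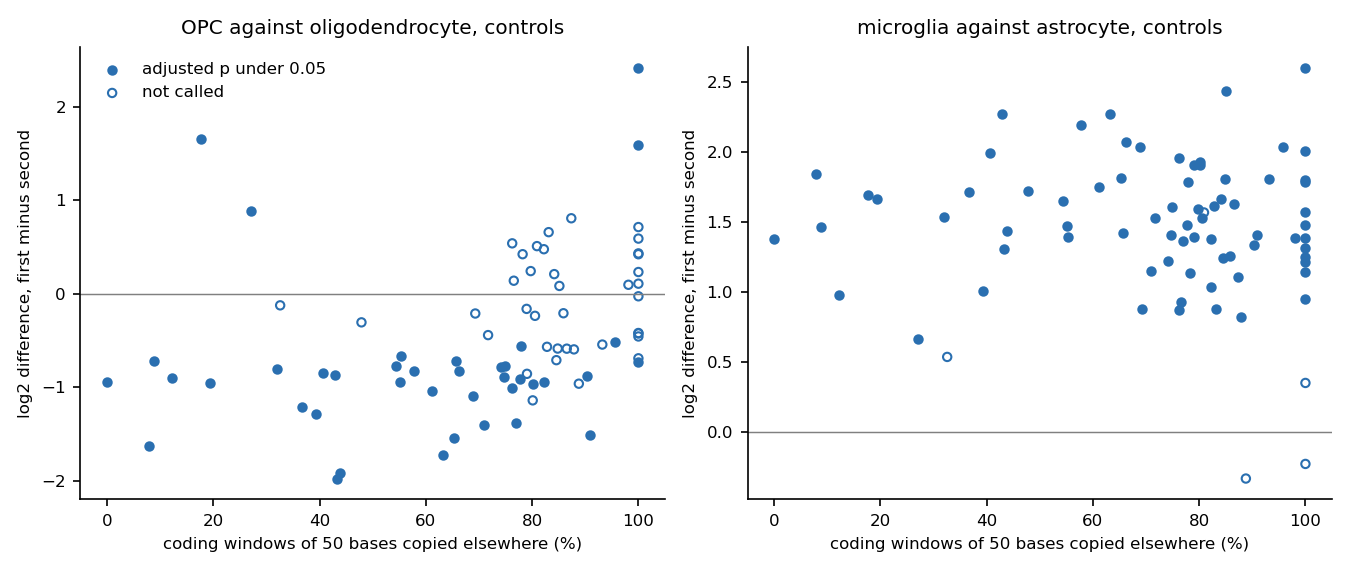
Share of each member's 50-base coding windows found elsewhere in the genome (horizontal, percent) against its log2 difference between control groups (vertical), for OPCs against oligodendrocytes and microglia against astrocytes, filled where the adjusted p is under 0.05 and without Rpl3l. Spearman's rho over 79 members is 0.49 and -0.08; on the scale of total gene counts the median of OPCs against oligodendrocytes is 0.38 in place of -0.67.

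Few members went the other way. Rpl12, a stalk base protein, had 3.61, 1.94, 2.09 and 4.90 CPM in oligodendrocyte controls and 3.90 to 9.07 (median 6.93) in astrocytes, groups that overlap. It was called higher in astrocytes (1.10 ± 0.37, adjusted p 0.019), but with copies added it was called lower (-0.88), with 92.3% of the family's reads on copies in oligodendrocytes and 75.9% in astrocytes. The call was lost without oligodendrocyte control replicate 3 (adjusted p 0.059) or 5 (adjusted p 0.058). Rpl24, a large subunit protein at the face toward the small subunit, was close to the limit of detection: 6 counts at most in any oligodendrocyte control, with 2 of the 4 libraries at 0 and the others at 0.75 and 0.46 CPM, against 0.93 to 2.39 (median 1.56) in OPCs, 0.44 to 2.31 (median 1.19) in astrocytes and 0.70 to 2.92 (median 1.48) in microglia. It was called higher in OPCs (2.42 ± 0.83, adjusted p 0.027), astrocytes (2.09 ± 0.83, adjusted p 0.044) and microglia (2.44 ± 0.83, adjusted p 0.012) than in oligodendrocytes. With copies added, astrocytes were called lower (-0.70) and OPCs stood at -0.32, not called. The calls for OPCs and astrocytes were also lost without oligodendrocyte control replicate 3 or 5, and that for astrocytes without astrocyte control replicate 1, 4 or 5. Between Rag2-/- libraries the differences were 0.29 for OPCs and -0.016 for astrocytes, neither called, with 42 Rpl24 counts in the 4 oligodendrocyte libraries, 35 of them in 1 library, against 9 in the 4 controls. Rpl27 in OPCs (1.59 ± 0.50, adjusted p 0.016) came to 0.38, not called, with copies added, and to 1.34 (adjusted p 0.063) without oligodendrocyte control replicate 6. Rpl10 in astrocytes (0.90 ± 0.35, adjusted p 0.044) came to 0.06 with copies added. It was not called without astrocyte control replicate 1, 2 or 3 or oligodendrocyte control replicate 1 or 6 (0.73 to 0.91), and was 1.51 without oligodendrocyte control replicate 3.

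Rps4l and Rps27l, paralogs of X-linked Rps4x and of Rps27, have few reads on copies. For Rps4l, adding copies could change almost nothing, since its 1 annotated copy held 0% to 0.73% of the family's reads. For Rps27l that share was 13.4% to 15.5%. Rps4l is a single-exon gene on chromosome 6 (chr6:148256098-148257431, GRCm39). It had 1.00, 1.03, 0.19 and 1.99 CPM in oligodendrocyte controls, 0.71 to 5.81 (median 3.78) in OPCs, 1.55 to 7.15 (median 3.34) in astrocytes and 8.38 to 13.2 (median 12.4) in microglia. Microglia lay wholly above the rest, and oligodendrocytes were lowest on average. The log2 difference from oligodendrocytes was 3.44 ± 0.51 for microglia (adjusted p 3.0e-07), 1.75 ± 0.49 for astrocytes (adjusted p 0.0043) and 1.65 ± 0.48 for OPCs (adjusted p 0.0094), and with copies added 3.46, 1.74 and 1.66. In Rag2-/- libraries the differences of astrocytes (0.83) and OPCs (1.01) were not called, and that of OPCs was 1.32 (adjusted p 0.054) without oligodendrocyte control replicate 5. Rps27l, a p53 target, had means of 13.5 CPM in microglia, 12.2 in OPCs, 8.54 in astrocytes and 6.66 in oligodendrocytes. Its difference between OPCs and oligodendrocytes was 0.89 ± 0.30 (adjusted p 0.024), and 0.72 to 0.84, not called, without oligodendrocyte control replicate 1, 3 or 6.

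Astrocyte markers summed to 2080 to 3064 CPM in OPC controls, near the 2809 to 3955 of the OPC markers there, against 18161 to 21645 in astrocyte controls, and their part in this comparison was not tested. Of the 79 members, 4 were called higher and 4 lower in astrocytes, with a median log2 difference of -0.06, whereas 29.9% of all genes were called (12.6% higher, 17.3% lower) and their median was -0.14. No member had all astrocyte libraries above all OPC libraries, and 2 had all below, with no such count made over all genes. With total gene counts the split was 1 higher and 28 lower (median -0.45, all genes -0.52). It was 5 and 3 with DESeq2 size factors, 6 and 3 without mitochondrially encoded genes, 7 and 3 by DESeq2, and 0 and 4 in the Rag2-/- libraries. The median was 0.04 by the first 3 of these, so its sign rested on the scaling. Shares of all genes called in these alternatives, and with total gene counts, are not given here. Rpl13, a large subunit protein, had 11.3 to 18.6 CPM (median 13.5) in astrocytes and 26.3 to 35.6 (median 28.7) in OPCs. These ranges were well apart. Its log2 difference was -1.08 ± 0.15 with an adjusted p of 3.8e-07. Rps15a (-0.79 ± 0.19, adjusted p 0.0013) and Rps26 (-0.48 ± 0.15, adjusted p 0.012) were also called lower, and Rps24 (0.55), Rps3 (0.43), Rpl3 (0.48) and Rpl3l those called higher. Of these, Rps26, Rps3 and Rpl3 were no longer called without any 1 of 3 or 4 of the 12 libraries.

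The lower end was marked by 3 paralogs known mainly from muscle or testis. Rpl10l, a testis paralog of Rpl10, had 0 counts in all control libraries, which in the deepest group allows up to 0.0376 CPM over the OPC controls (3 counts over their total). Rpl39l, a testis paralog of Rpl39, had 12 counts in oligodendrocyte controls, 7 in astrocytes, 19 in microglia and 0 in OPCs, and with Rpl10l did not pass the filter. Rpl3l, the paralog of Rpl3 in striated muscle, had 32 counts in astrocytes (5 of 6 libraries), 12 in oligodendrocytes (all in replicate 3), 7 in microglia (3 of 6) and 0 in OPCs, controls throughout. Against the 3 counts over the group that a count of 0 allows in OPCs, Rpl3l was at least 16.6-fold higher in astrocytes and at least 11.6-fold higher in oligodendrocytes. These bounds are for control libraries alone: in Rag2-/- libraries Rpl3l had 34 counts in astrocytes, 24 in oligodendrocytes, 15 in microglia and 12 in OPCs. Without oligodendrocyte control replicate 3, no Rpl3l count remained in oligodendrocytes. The medians over members were unchanged with this gene at its bound.

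The X chromosome carries 4 members: Rpl10, Rpl36a, Rpl39 and Rps4x. Rps4x, a small subunit protein, had means of 151 CPM in microglia, 72.8 in oligodendrocytes, 40.3 in astrocytes and 37.4 in OPCs. Rpl39, at the polypeptide exit tunnel, had 18.7, 11.04, 6.40 and 6.32, and Rpl36a had 5.99, 3.01, 3.16 and 3.31. Rps4x, Rpl39 and Rpl36a were called higher in microglia than in each other type, Rpl36a with adjusted p between 0.020 and 0.031. The Rpl36a calls were lost without microglia control replicate 6 in each comparison, and also without astrocyte control replicate 3, OPC control replicate 3, 4 or 5, or oligodendrocyte control replicate 1, 3 or 5 in the comparison with that type. With copies added Rpl36a against oligodendrocytes came to 0.53 (adjusted p 0.18), and with total gene counts it came to 0.70 against OPCs (adjusted p 0.078). Rpl5 and Rpl11 form the complex with 5S ribosomal RNA that can bind Mdm2 and so stabilise p53. Rpl5 had means of 12.8 CPM in microglia, 5.38 in OPCs, 3.71 in astrocytes and 3.50 in oligodendrocytes, with 84.1% to 95.7% of its family's reads on copies. Its difference between OPCs and oligodendrocytes was 0.59 ± 0.36 (adjusted p 0.23). It was called lower with copies added (-0.88, adjusted p 9.2e-05) and higher with total gene counts (1.57, adjusted p 0.0013) or without oligodendrocyte control replicate 3 (1.25, adjusted p 0.0098). Rpl11 had 13.5, 4.60, 5.70 and 7.53 CPM in the same order. Rpsa, a small subunit protein also known as the laminin receptor precursor, had 28.7 CPM in microglia, 24.3 in oligodendrocytes, 10.9 in astrocytes and 8.49 in OPCs. Its microglial and oligodendrocyte levels were not called different (0.25 ± 0.20, adjusted p 0.29). With total gene counts as the scale that difference was 1.17 and called (adjusted p 1.3e-05).

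Members with and without a pyrimidine run at the annotated start were set side by side, with no test between them. For the 25 with a run and the 33 without that were tested, the medians were 1.43 and 1.42 for microglia against astrocytes, 1.34 and 1.45 against OPCs, and 0.97 and 0.85 against oligodendrocytes. They were -0.63 and -0.76 for astrocytes and -0.44 and -0.69 for OPCs against oligodendrocytes, where all members with total gene counts had -0.08 and 0.38, and -0.06 and -0.06 for astrocytes against OPCs. An annotated start need not be the start used in these cells.

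Other genes of the pathway were taken from lists, and their counts are to be read beside the 28% of all genes called higher and 30.7% called lower in microglia than in astrocytes. Among 7 ribosomal proteins named outside the rule, 5 were called higher in microglia than in astrocytes and 0 lower, including the scaffold protein Rack1 (1.94 ± 0.17), Rps3a1 (1.58 ± 0.16) and Fau (2.16 ± 0.35). Of 7 elongation factors, 6 were called higher and 1 lower. Eef1a1, which delivers aminoacyl-tRNA, differed by 1.91 ± 0.14 and Eef1b2, its exchange factor, by 1.62 ± 0.17. Of 10 other mRNAs with a TOP motif, 9 were called higher, led by the poly(A)-binding protein gene Pabpc1 (2.40 ± 0.16). Of 16 genes of ribosome synthesis, 12 were called higher, among them nucleolin (Ncl, 1.61 ± 0.12) and the export adaptor Nmd3 (1.99 ± 0.19). Of 8 genes that control translation of these mRNAs, 5 were called higher, with Rptor at 1.82 ± 0.21, and 1 lower, Mtor at -1.30 ± 0.19. Against OPCs, where 25.8% of all genes were called higher and 32.4% lower, the counts of higher and lower were 5 and 0, 6 and 1, 9 and 0, 11 and 0, and 5 and 1 in the order of these lists, and against oligodendrocytes (27.1% and 29.3% of all genes) 5 and 0, 5 and 1, 8 and 0, 14 and 0, and 4 and 1. The gene called lower against oligodendrocytes among elongation factors was Eef1a2, the form of neurons and muscle (-4.19 ± 0.36). Neuronal markers were also highest in oligodendrocyte libraries, and their part in this was not tested.

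Astrocytes against oligodendrocytes had 1 and 3, 0 and 5, 0 and 4, 1 and 3, and 2 and 0 called higher and lower in these lists, beside 16.2% and 20% of all genes. OPCs against oligodendrocytes had 0 and 1, 0 and 4, 1 and 3, 5 and 2, and 0 and 0, beside 14.3% and 12.2%. In the latter, Eef1a1 stood at -1.62 ± 0.15, Tpt1 at -1.28 ± 0.19 and Dkc1, of the pseudouridylation complex, at 1.34 ± 0.33. Astrocytes against OPCs had 1 and 0, 0 and 1, 1 and 2, 0 and 3, and 1 and 0, beside 12.6% and 17.3%.

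The second comparison, the one the study was designed for, asked whether the loss of lymphocytes alters these genes within a cell type. No member was called in any of the 4 cell types by edgeR's quasi-likelihood test with sex and genotype as terms. In the order oligodendrocytes, OPCs, astrocytes, microglia, the members tested numbered 73, 77, 75 and 78. The share of all genes called was 0%, 0.00592%, 0.00679% and 0.00667%. The study, using DESeq2 with the same terms, reported differentially expressed genes in oligodendrocytes, and more of them than in the other cell types. At an unadjusted p under 0.05 there were 1, 0, 0 and 0 members, beside 3.38%, 4.02%, 2.87% and 2.91% of all genes. DESeq2 also called 0 members in each. The median log2 differences (Rag2-/- minus control) were 0.09, 0.00, 0.04 and 0.01, beside 0.00, -0.01, 0.00 and -0.01 over all genes, and 43 of 73, 40 of 77, 46 of 75 and 41 of 78 members were on the positive side.

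The precision of this comparison differed by cell type. The median standard error of a member's log2 difference was 0.16 in microglia, 0.22 in OPCs and astrocytes, and 0.41 in oligodendrocytes. Its 95% interval lay between -1 and 1 for 77 of 78 members in microglia, 65 of 75 in astrocytes, 66 of 77 in OPCs and 32 of 73 in oligodendrocytes. A change of 2-fold was thus outside the interval for most members in microglia, astrocytes and OPCs, and inside it for most in oligodendrocytes.

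**Figure D5:**
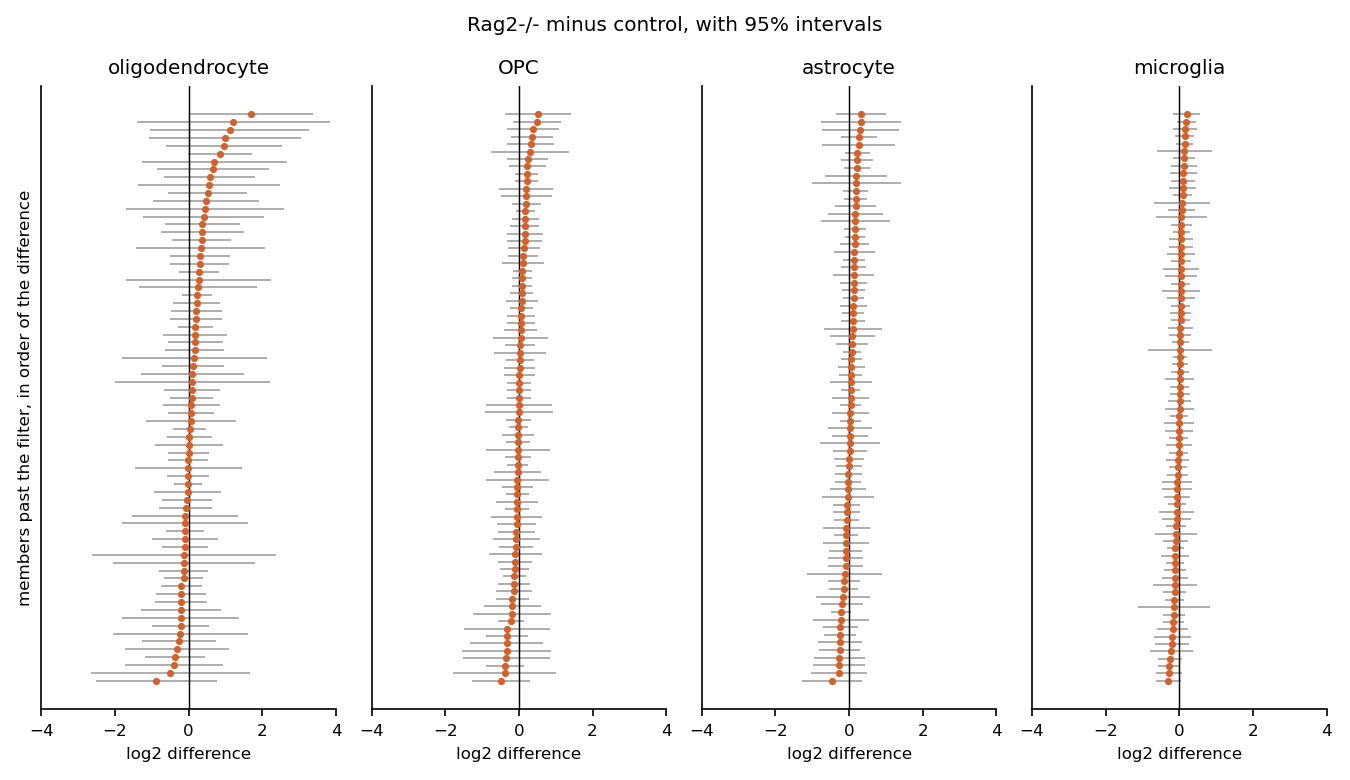
Log2 difference (horizontal, Rag2-/- minus control) of each tested member with its 95% interval, drawn up to 4 on either side, in the 4 cell types; members are stacked in order of the difference. No member is called in any of them, medians are 0.01 in microglia, 0.04 in astrocytes, 0.00 in OPCs and 0.09 in oligodendrocytes, and the intervals are widest in oligodendrocytes, where Rpl13a stands at 1.70.

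The member with the smallest p in oligodendrocytes was Rpl13a, a large subunit protein also known from translational silencing in inflammation. Its controls had 6.10, 2.33, 2.84 and 7.20 CPM and its Rag2-/- libraries 44.5, 6.39, 5.19 and 4.20. A single Rag2-/- library stood far above the other 7, which overlapped. The log2 difference was 1.70, with an interval from 0.02 to 3.37, an unadjusted p of 0.048 and an adjusted p of 0.998. In OPCs, astrocytes and microglia the Rag2-/- means of Rpl13a were 5.44, 6.67 and 8.06 CPM and the control means 4.15, 6.35 and 9.32. Rpl15 came next in oligodendrocytes, with controls at 39.5, 30.7, 27.1 and 23.7 CPM and Rag2-/- libraries at 44.4, 74.5, 24.2 and 70.5, a log2 difference of 0.85 (-0.01 to 1.71) and an adjusted p of 0.998. The groups overlapped. Rps3 had Rag2-/- libraries at 306, 347, 300.0 and 371 CPM in oligodendrocytes, all above the 4 controls. Its difference was 0.22 (-0.18 to 0.63, adjusted p 0.998), where 0% of all genes were called.

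Among the differences with the smallest p, intervals were narrower in the other cell types. In OPCs these were Rpl12 at 0.49 (-0.17 to 1.15) and Rps13 at -0.37 (-0.88 to 0.14). In astrocytes they were Rpl22, a large subunit protein that also binds viral RNA, at -0.22 (-0.49 to 0.04), and Rps14 at 0.23 (-0.12 to 0.57). In microglia Rpl9 stood at -0.31 (-0.65 to 0.03). Their adjusted p were at least 0.999. Highly counted members gave narrow intervals: in microglia Rplp0 stood at 0.03 (-0.21 to 0.26), Rps4x at 0.01 (-0.20 to 0.23), Rpl10 at -0.13 (-0.44 to 0.18) and Rpl4 at -0.13 (-0.40 to 0.14).

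A test of whether the genotype difference itself varied between cell types called 0 of 79 members, where 0.248% of all genes were called. By edgeR 1 member had an unadjusted p under 0.05, Rpl13a (adjusted p 0.43), beside 11.2% of all genes. DESeq2's likelihood ratio test called 0 members. Female minus male differences, taken from the same fits, were called for 0 members in each cell type, where 0.0362%, 0.0296%, 0.0407% and 0.0467% of all genes were called in oligodendrocytes, OPCs, astrocytes and microglia. Members with an unadjusted p under 0.05 numbered 1 (Rpl41), 3 (Rpl10, Rpl15 and Rpl27a), 0 and 0, beside 8.23%, 4.30%, 6.73% and 3.92% of all genes. DESeq2 called 0 members. Among the X-linked members Rpl10 stood at -0.71 ± 0.28 in OPCs (adjusted p 0.999), -0.34 ± 0.21 in astrocytes and -0.15 ± 0.15 in microglia, and Rps4x between -0.23 and 0.31 over the 4 cell types.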

How the data were processed

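RNA of immunopanned cells was amplified (Ovation V2), made into libraries with NEBNext Ultra and sequenced in pairs of 50 bases. Per the labels and the study's methods, the authors aligned reads with STAR 2.7.8a to GRCm39 and counted them per Ensembl gene with HTSeq, and deposited raw read counts per gene, 1 table a library, not normalized. The strand setting is not given in the sources used here. Rows that name no gene (33.5% to 52.0% of reads) were left out. Symbols, exons and annotated copies came from a GENCODE annotation of the same build, which named 54749 of the 55416 identifiers, so gene models can differ from those counted. Copies were assigned by name or by blastn match (at least 100 bases at 80% identity).

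Counts were tested with edgeR 4.0.16 (quasi-likelihood, TMM, filterByExpr with a minimum count of 10 and total of 15) in R 4.3.3, each cell type alone with sex and genotype as terms, after the study's model, or, between cell types, in 1 fit of the 43 libraries with 8 groups and sex. DESeq2 1.42.0 was the alternative. Benjamini-Hochberg adjustment ran over all genes tested, and the threshold was 0.05. The fit was tested on simulated data. Intervals are at 95%, from the t distribution with the degrees of freedom of the fit. The members and lists were chosen with earlier results of these data known. Named members are the paralogs, the X-linked genes, the stalk genes, Rpsa, Rpl5, Rpl11, up to 5 called members by p in each direction of a comparison (with none called, the 2 with the smallest p), the extremes per kilobase, the most copied and those with an unusual order; a few of these are not reported here. Pairs are littermates by the labels. Deviations from the group mean correlated within pairs by 0.10, 0.10, 0.12 and 0.08 on average in oligodendrocytes, OPCs, astrocytes and microglia. Other pairs gave -0.02 to -0.03, but subtracting group means forces that average below 0, so it is no separate reference. No libraries of a group were duplicates (smallest chi-square per gene 7.45 over 97 pairs). Alternatives changed the scaling, filter, tool, sex term, block, controls, libraries and the treatment of copies.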

Additional observations from a re-analysis of the deposited data

Results flagged for a closer look

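Dixon's ratio sets the gap between the outermost library and the next against the range of the group. At the 95% level it marked a single library in 11 of 136 groups tried over the members whose library values are given. That is 8.09%, where chance gives about 5%. The library of OPC Rag2-/- replicate 3 was the highest for 4 members: Rpl4 at 210.7 CPM, Rplp0 at 43.1, Rps9 at 115 and Rpl3 at 19.6. Its members summed to 2153 normalized CPM, against 1509 to 1704 in the other 4 libraries of the group, with 26.4% of counts from mitochondrially encoded genes against 25.4% to 36.7%. Microglia Rag2-/- replicate 2 was highest for Rplp1 (377 CPM) and Rps15 (179 CPM). In control libraries such values were Rps3 in microglia replicate 1 (614 CPM), Rplp0 in oligodendrocyte replicate 3 (79.1 CPM) and Rpl12 in OPC replicate 5 (7.21 CPM). Rps3 in oligodendrocyte control replicate 5 (285 CPM) was marked too, although the others lay close by, at 270 to 272. Rpl13a in oligodendrocyte Rag2-/- replicate 1 (44.5 CPM, the others 4.20 to 6.39) carries the smallest genotype p of that cell type.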

How the results depend on the processing

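No member was called by genotype, by sex or by their difference between cell types in any alternative run. Between cell types, the counts of called members moved by over 1.5 times in a few settings. Astrocytes against oligodendrocytes (47) gave 31 with no filter and 27 with total gene counts. Astrocytes against OPCs (8) gave 5 with no filter, 4 in Rag2-/- libraries and 29 with total gene counts, and OPCs against oligodendrocytes (41) gave 62 with copies added. For most of these the cause was not tested. Shares of all genes called are not given for the alternative settings of this section. Leaving out 1 library gave 70 to 73 for microglia against astrocytes, 68 to 71 against OPCs and 50 to 57 against oligodendrocytes, 5 to 8 for astrocytes against OPCs (5 without astrocyte control replicate 2), 37 to 45 for astrocytes and 37 to 43 for OPCs against oligodendrocytes, and 0 to 0 for genotype, sex and interaction.

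Directions of called members turned in 10 cases. With copies added these were Rpl12 (-0.88) and Rpl24 (-0.70) in astrocytes and Rpl24 in OPCs (-0.32) against oligodendrocytes. In Rag2-/- libraries Rpl24 in astrocytes was at -0.016. With total gene counts Rpl15 (0.10) and Rps15 (0.18) turned in microglia, and Rpl39 (0.24), Rplp0 (0.19), Rplp2 (0.22) and Rps4x (0.078) in OPCs, all against oligodendrocytes. Rpl5, not called as reported, was called lower than in oligodendrocytes with copies added, at -0.63 in astrocytes and -0.88 in OPCs. Of the other values of called members, 737 kept direction and call and 79 lost the call. Of those of members not called, 1067 stayed uncalled with the same direction, 110 stayed uncalled with the other direction and 14 gained a call. With single libraries left out, 827 values of called members kept both, 81 lost the call and 0 turned, while of those not called 1325 kept their direction, 139 turned without a call and 5 gained a call.

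With the littermate pair as a replicate block, 0 members were called by genotype, sex or interaction. With the mouse as a block, 72, 70 and 52 were called for microglia against astrocytes, OPCs and oligodendrocytes, 7 for astrocytes against OPCs, and 43 and 37 for astrocytes and OPCs against oligodendrocytes. With 4 libraries a group and median standard errors of 0.41, oligodendrocytes limit the genotype comparison most.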
